A study of Mus musculus with 6 samples.

Results

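The interleukin 6 (IL-6) family was followed through 9 genes in regenerating mouse muscle: the cytokine genes Il6, Lif and Osm, the receptor genes Il6ra, Il6st, Lifr and Osmr, and the signalling genes Socs3 and Stat3. They were chosen by name, and all 9 were found among the 52369 genes of the expression table by matching Ensembl identifiers to mouse symbols. The libraries came from tibialis anterior muscle of C57BL/6 mice, 3 from the Linc-smad7 overexpression group, called L7, and 3 from the control group. In both groups the muscle had been injured at 5 weeks of age by injecting 50 µl of cardiotoxin at 10 µM, a cobra toxin that kills fibres, after which the muscle regenerates. Both groups then received 6.25 µg of pcDNA3.1 plasmid with an in vivo transfection reagent in 3 injections, and the muscle was taken on day 7, with an age of 6 weeks given on the label. The labels do not say which cells took up the plasmid, whether the control plasmid was empty, or whether each library came from 1 animal, so the p-values measure only the spread between these libraries.

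Cytokines of the IL-6 family act through receptor complexes that share the signal-transducing chain gp130, the product of Il6st. IL-6 binds IL-6 receptor alpha (Il6ra), leukaemia inhibitory factor (Lif) binds the LIF receptor (Lifr), and in mice oncostatin M (Osm) binds mainly the oncostatin M receptor (Osmr), each then pairing with gp130. The complexes activate Janus kinases, which phosphorylate the transcription factor STAT3, and STAT3 induces Socs3, whose product binds gp130 and shuts the signal down. In injured muscle IL-6 and LIF are known to act on muscle precursor cells, and macrophages and neutrophils are known sources of oncostatin M.

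Each library had between 19420012 and 24663153 reads assigned to genes. The library L7 replicate 3 differed from the rest, correlating at 0.920 to 0.951 with the other 5 over the tested genes, against 0.979 to 0.989 among those 5. Its 10 most read genes held 14.1% of its total, where the other libraries had 6.57% to 8.40%. The median log2 difference of all tested genes between L7 and control was -0.15 on the deposited values, and median of ratios scaling, which lines up the libraries on their typical gene, brought it to -0.0029. Results are therefore given with all 6 libraries and without L7 replicate 3. Y-linked genes had 3185 reads in L7 replicate 1 and 4184 and 4168 in control replicates 1 and 3, and at most 2 reads in the other 3 libraries. Libraries with many Y-linked reads were thus unevenly split between the groups. Gm20544, an annotated transcript beside Smad7, was at 10.7, 15.7 and 5.47 FPKM in L7 and at 1.87, 2.54 and 1.70 FPKM in control libraries. Its adjusted p was 0.0449 in the authors' deposited table, 0.58 in limma and 0.0181 in limma with array weights. The sources used here do not say whether it is the overexpressed RNA.

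Levels are given in FPKM, a read density corrected for gene length and sequencing depth, so that genes can be compared per length. Averaged over the 6 libraries, the signalling genes and the shared receptor chain stood far above the cytokines and the cytokine-specific receptors. Socs3 averaged 160 ± 54.7 FPKM, Stat3 159 ± 36.3 FPKM and Il6st 118 ± 24.4 FPKM (SD over n = 6 libraries). Below them came Osmr with a mean of 16.3 FPKM, Il6ra with 9.31 FPKM, Lifr with 6.28 FPKM, Il6 with 5.27 FPKM, Osm with 3.66 FPKM and Lif with 2.45 FPKM. Neighbours in this order had overlapping ranges over the libraries, except Il6st and Osmr, between which the ranges did not overlap. Stat3 lay above Il6st, Osmr above Il6ra and Osm above Lif in all 6 libraries, while Socs3 lay above Stat3 in 3 of 6. Among 14788 genes with a mean of at least 1 FPKM, which form the tested set, Socs3 and Stat3 stood at the 95.6th percentile of level and Lif at the 15.6th. All 9 IL-6 family genes passed that filter on their mean over all libraries.

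**Figure D1:**
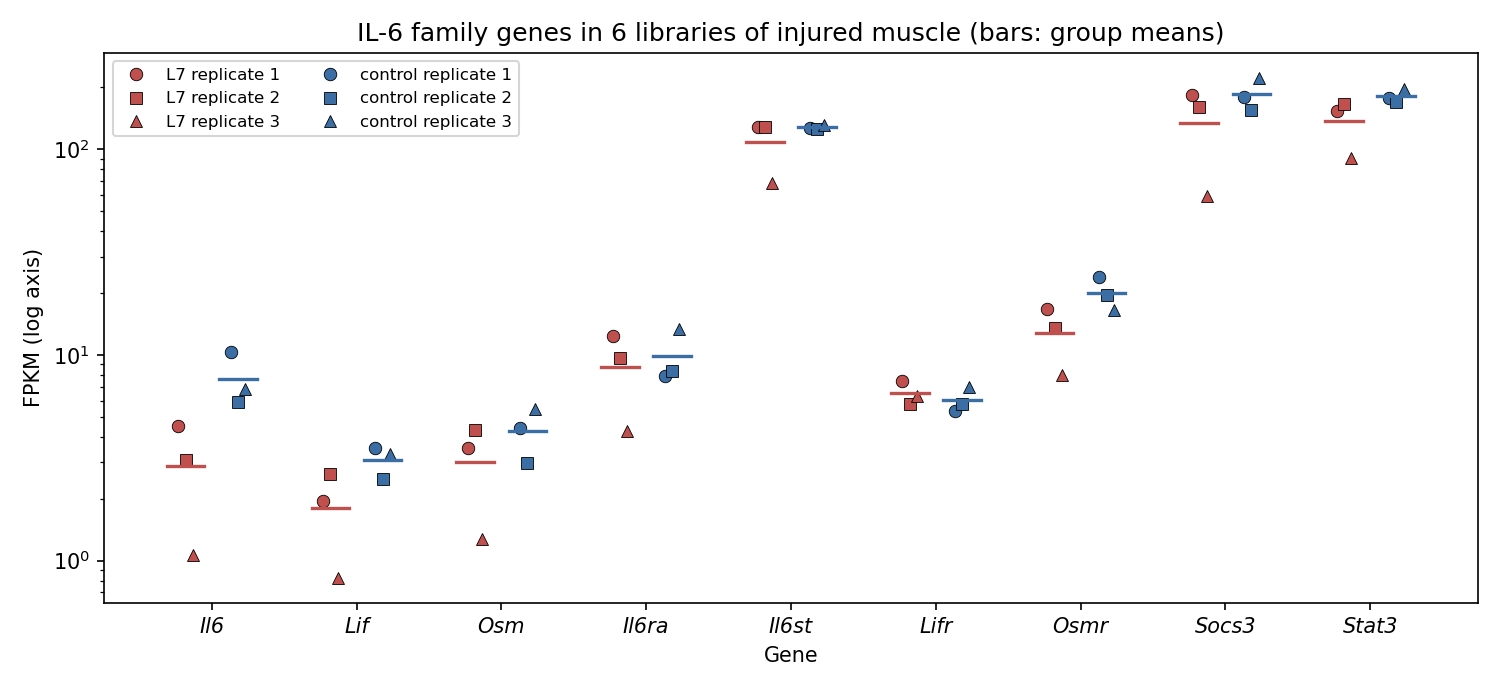
FPKM on a log axis of the 9 IL-6 family genes, L7 libraries in red on the left of each pair and control libraries in blue on the right, 1 symbol per replicate number and a bar at each group mean. Il6 was lower in each L7 library than in each control library, and L7 replicate 3 (red triangle) was the lowest library for every gene except Lifr.

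The plot of FPKM by library shows 2 patterns. Of the 9 genes, 8 had a negative log2 difference (L7 minus control), where 70.8% of all tested genes did. L7 replicate 3 was the lowest of the 6 libraries for 8 of the 9 genes, where it was the lowest for 63.2% of all tested genes. In Il6 and Stat3 every L7 value lay below every control value (2 of 9 genes), which 13.7% of the tested genes also showed, and none of the 9 lay above control in every L7 library, as 5.49% of the tested genes did (19.2% did not overlap in either direction). After median of ratios scaling 1 of 9 genes, Il6, lay below control, against 8.87% of the tested genes below and 9.41% above. Without L7 replicate 3, Il6 and Stat3 lay below control, against 15% of the tested genes below and 9.9% above. The median log2 difference of the 9 genes was -0.45 (-0.30 relative to the median of all genes). After median of ratios scaling without L7 replicate 3 it was -0.07, with 6 of 9 genes negative and a median over all genes of -0.0035.

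Il6 was the cytokine gene with the clearest separation between the groups. It was at 4.49, 3.07 and 1.07 FPKM in L7 libraries and at 10.3, 5.90 and 6.84 FPKM in control libraries. The highest L7 library was thus below the lowest control library, and L7 replicate 3 was the lowest of all. In bulk muscle, fewer cells of a type and less RNA per cell cannot be told apart. Il6 is encoded on chromosome 5 from 30013114 to 30019981 on the plus strand (mm10), with no other annotated gene overlapping it. Its values rest on few reads, 127, 81 and 29 in L7 and 274, 146 and 215 in control libraries. For L7 replicate 3 the exact 95% Poisson interval is 19.4 to 41.6 reads, and for control replicate 2, the control library with fewest reads, it is 123 to 172 reads. These intervals cover counting error only.

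The ratio of the Il6 group means was 0.375, from 2.88 ± 1.72 FPKM in L7 and 7.67 ± 2.31 FPKM in control libraries (SD, n = 3 each). In limma the log2 difference of Il6, on the log2(FPKM + 1) scale that understates changes of low genes, was -1.24 ± 0.37 (SE), with a 95% interval from -2.11 to -0.37. Before adjustment limma gave it a p of 0.0115, and the adjusted p over all tested genes was 0.580, so it did not pass the threshold of 0.05. Its exact permutation p, two-sided, was 0.1, the smallest that 3 libraries against 3 allow. Without L7 replicate 3 and with median of ratios scaling its log2 difference was -0.82 ± 0.23 (SE), with a limma adjusted p of 0.744. Each remaining L7 library was still below each control library. In the authors' deposited table the log2 fold change of Il6 was -1.31, with p = 0.00297 before and 1 after adjustment. By the unadjusted p in the authors' deposited table, Il6 alone of the 9 genes was lower at a p under 0.05, against 1.23% of the tested genes lower and 0.514% higher. None of the 9 had an adjusted p under 0.05 in the authors' deposited table, where 0.0609% of the tested genes did.

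The Il6 promoter is printed because Il6 had the clearest group separation and because its NF-kappaB element is the best known switch of the gene in inflammation. The 250 bases before the RefSeq start of Il6, chr5:30012864-30013113 on the plus strand (GRCm38.p6, the assembly behind mm10), are given 5′ to 3′, with the single match to the NF-kappaB motif (GGG, any 2 bases, then TTTCC) in capitals.
Il6: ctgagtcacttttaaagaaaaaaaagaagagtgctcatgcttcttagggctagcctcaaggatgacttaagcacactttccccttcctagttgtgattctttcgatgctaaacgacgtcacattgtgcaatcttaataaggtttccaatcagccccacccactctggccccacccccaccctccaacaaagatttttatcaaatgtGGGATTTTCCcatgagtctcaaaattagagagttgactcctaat
The match begins 44 bases before the start. On both strands, 1.41% of 32851 RefSeq promoter windows of the same length held this motif.

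Lif and Osm are neighbours on chromosome 11, with 16530 bp and no annotated gene between them. Lif, at 4257557 to 4272514 on the plus strand (mm10), was at 1.96, 2.63 and 0.827 FPKM in L7 and at 3.51, 2.48 and 3.29 FPKM in control libraries. L7 replicate 3 was lowest, and the groups overlapped through L7 replicate 2 and control replicate 2. For Lif the log2 difference was -0.59 ± 0.27 (SE, 95% interval -1.23 to 0.05), and the limma adjusted p was 0.580. Leaving out L7 replicate 3, with median of ratios scaling, gave -0.29 ± 0.17 (SE).

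Osm, at 4236420 to 4241026 on the plus strand (mm10), was at 3.52, 4.31 and 1.27 FPKM in L7 and at 4.40, 2.98 and 5.48 FPKM in control libraries. L7 replicates 1 and 2 lay within the control range and L7 replicate 3 below it. For Osm the log2 difference was -0.45 ± 0.35 (SE, 95% interval -1.26 to 0.36), and the limma adjusted p was 0.583. With L7 replicate 3 left out and median of ratios scaling it was -0.06 ± 0.23 (SE). Within a library, the ratio of Il6 to Osm was 1.27, 0.711 and 0.845 in L7 and 2.34, 1.98 and 1.25 in control libraries, with L7 replicate 1 just above control replicate 3. The exact permutation p of that ratio was 0.2, and 0.4 after Benjamini-Hochberg adjustment over the 6 ratios between family members that were computed.

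Among the receptors, the shared chain Il6st was at nearly the same level in 5 of the 6 libraries. It was at 128, 128 and 68.3 FPKM in L7 and at 127, 126 and 131 FPKM in control libraries. L7 replicate 3, at 53.5% of the mean of the other L7 libraries, was the library that differed. In limma Il6st had a log2 difference of -0.30 ± 0.25 (SE, 95% interval -0.89 to 0.29), and the limma adjusted p was 0.591. After median of ratios scaling without L7 replicate 3 it was 0.03 ± 0.09 (SE), with a 95% interval of -0.18 to 0.24, which is the narrowest interval of the 9 genes in that comparison. Il6st lies on chromosome 13 from 112464070 to 112510086 on the plus strand (mm10).

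Il6ra, the IL-6 binding chain, was at 12.3, 9.65 and 4.26 FPKM in L7 and at 7.92, 8.40 and 13.3 FPKM in control libraries. The groups overlapped widely, and the low value was again L7 replicate 3. The log2 difference of Il6ra was -0.23 ± 0.36 (SE), and without L7 replicate 3 on the deposited values it was 0.17, so its direction rests on that library. Its limma adjusted p was 0.746. Il6ra lies on chromosome 3 from 89864059 to 89913196 on the minus strand (mm10). An antisense gene, Gm42809, overlaps it over 281 bp and had at most 2 reads in any library.

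Osmr and Lifr lie on chromosome 15, Osmr at 6813577 to 6874969 on the minus strand and Lifr at 7090614 to 7197489 on the plus strand (mm10). Osmr was at 16.7, 13.5 and 8.01 FPKM in L7 and at 23.8, 19.6 and 16.5 FPKM in control libraries. The groups overlapped narrowly, with L7 replicate 1 just above control replicate 3. The log2 difference of Osmr was -0.65 ± 0.27 (SE, 95% interval -1.28 to -0.02), with a limma p of 0.0453 before adjustment, where the adjusted p was 0.580. Leaving out L7 replicate 3, with median of ratios scaling, gave -0.34 ± 0.16 (SE).

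Lifr was the gene of the 9 with a positive difference. It was at 7.46, 5.75 and 6.31 FPKM in L7 and at 5.34, 5.79 and 6.99 FPKM in control libraries. The groups overlapped, and L7 replicate 3 was not low, at 95.4% of the mean of the other L7 libraries. Lifr had a log2 difference of 0.09 ± 0.17 (SE, 95% interval -0.30 to 0.49), and the limma adjusted p was 0.775. The ratio of Osmr to Lifr within a library, which scaling cannot move, was 2.24, 2.35 and 1.27 in L7 and 4.46, 3.38 and 2.36 in control libraries. Each L7 ratio lay below each control ratio, by a narrow margin between L7 replicate 2 and control replicate 3. Its exact permutation p was 0.1, the smallest possible, and 0.4 after Benjamini-Hochberg adjustment over the 6 ratios.

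**Figure D2:**
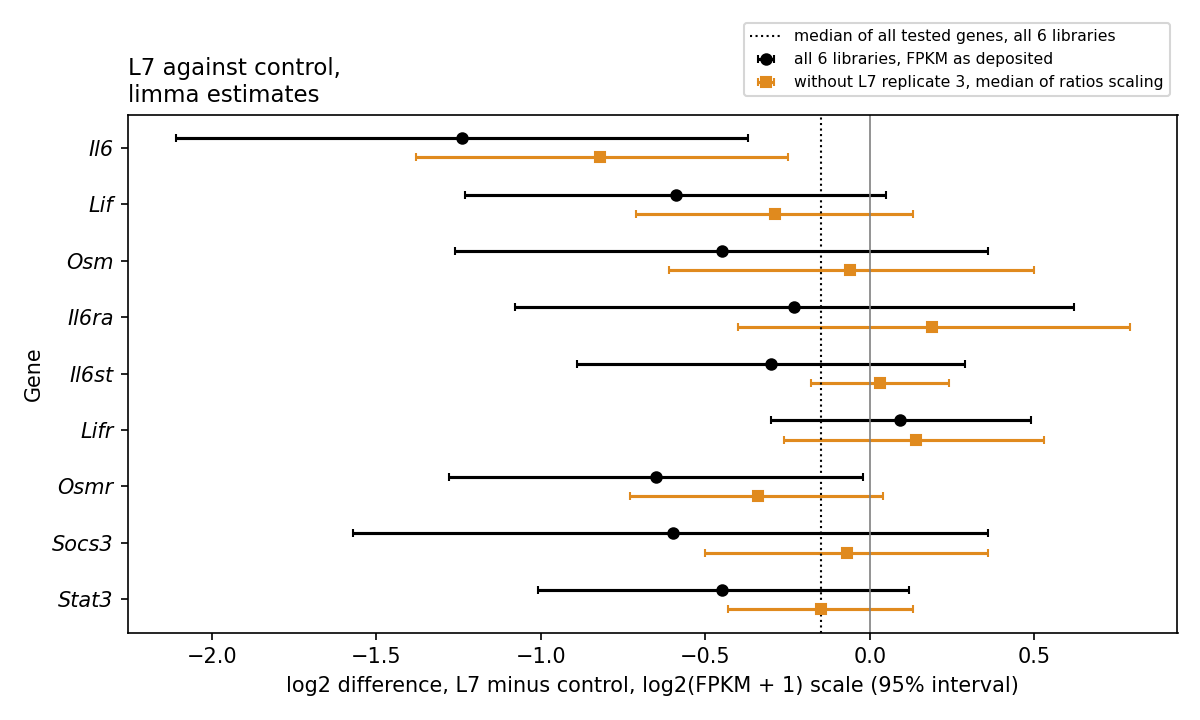
Log2 difference of each IL-6 family gene, L7 minus control, on the log2(FPKM + 1) scale, with 95% limma intervals for all 6 libraries (black circles) and without L7 replicate 3 after median of ratios scaling (orange squares); the dotted line is the median of all tested genes, -0.15. In the second comparison the interval, not adjusted for the number of genes, lies below 0 for Il6 alone (-1.38 to -0.25). The limma adjusted p of Il6 there was 0.744, and the share of all tested genes with such an interval was not taken.

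Socs3, the feedback inhibitor, was at 183, 160 and 59.3 FPKM in L7 and at 179, 155 and 222 FPKM in control libraries. L7 replicates 1 and 2 lay within the control range, and L7 replicate 3 was at 34.5% of their mean. The log2 difference of Socs3 was -0.60 ± 0.41 (SE, 95% interval -1.57 to 0.36), and the limma adjusted p was 0.580. With L7 replicate 3 left out and median of ratios scaling it was -0.07 ± 0.18 (SE). Socs3 lies on chromosome 11 from 117966079 to 117970047 on the minus strand (mm10).

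Stat3, the transcription factor, was at 154, 166 and 91.1 FPKM in L7 and at 177, 170 and 197 FPKM in control libraries. Each L7 library lay below each control library, by a small margin between L7 replicate 2 and control replicate 2. Stat3 had a log2 difference of -0.45 ± 0.24 (SE, 95% interval -1.01 to 0.12), and the limma adjusted p was 0.580. After median of ratios scaling without L7 replicate 3 it was -0.15 ± 0.11 (SE). Stat3 lies on chromosome 11 from 100885098 to 100939540 on the minus strand (mm10), and its annotation shares 72 bp with Stat5a on the other strand. The ratio of Socs3 to Stat3 within a library was 1.19, 0.969 and 0.651 in L7 and 1.01, 0.913 and 1.13 in control libraries, with overlapping groups.

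The Socs3 promoter is shown because STAT3 is known to act on it directly, and it was the only one of the 8 family genes with a RefSeq promoter entry that held the STAT motif TTCNNNGAA. The 250 bases before the RefSeq start, chr11:117969367-117969616 on the minus strand (GRCm38.p6), are given 5′ to 3′, with the motif in capitals. That start lies inside the longer GENCODE gene span given for Socs3.
Socs3: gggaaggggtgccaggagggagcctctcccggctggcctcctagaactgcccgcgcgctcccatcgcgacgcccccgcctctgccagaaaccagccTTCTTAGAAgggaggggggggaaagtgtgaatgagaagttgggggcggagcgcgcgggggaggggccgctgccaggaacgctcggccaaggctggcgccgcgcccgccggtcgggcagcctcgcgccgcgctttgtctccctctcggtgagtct
The match begins 154 bases before the start and reads the same motif on both strands. Of 32851 promoter windows, 7.02% held it. No entry for Osm was used.

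Over all tested genes, no gene passed limma at an adjusted p under 0.05 in either direction (0% of 14788), and none of the 9 family genes did. At an unadjusted limma p under 0.05, 2 of the 9 genes were lower, Il6 and Osmr, against 4.25% of the tested genes lower and 1.65% higher. Limma voom on the recovered reads also called 0 of the 9 at an adjusted p under 0.05.

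The rest of the pathway was described with lists of other family members, kinases, inhibitors and STAT3 target genes. None of their tested genes passed limma at an adjusted p under 0.05, so their values are given as descriptions. Of 8 other cytokines of the family, 5 were tested, 3 with negative and 2 with positive differences. The median of the 5 was -0.02, against -0.15 for all genes. Il27, a subunit of the cytokine IL-27, was at 5.56, 6.66 and 2.82 FPKM in L7 and at 8.95, 7.67 and 17.8 FPKM in control libraries. Clcf1, a cytokine that signals through gp130 and the LIF receptor, was at 9.68, 10.9 and 6.63 FPKM in L7 and at 14.0, 12.8 and 13.6 FPKM in control libraries. In both genes, 2 of the 5 tested, each L7 library lay below each control library, as in 13.7% of all tested genes. Il11 and Cntf were below the filter, with at most 28 and 3 reads in a library, and Il31 was listed at 0 in all 6 libraries.

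Among the other receptors, 3 of 4 were tested and their median log2 difference was 0.01. Il11ra1, the IL-11 receptor, was at 88.7, 86.3 and 67.9 FPKM in L7 and at 79.7, 81.1 and 78.0 FPKM in control libraries. It was thus the most abundant of the cytokine-binding receptors of the family, and its groups overlapped. Cntfr averaged 12.6 ± 1.06 FPKM in L7 and 11.8 ± 2.94 FPKM in control libraries, and Il27ra 2.40 ± 0.824 FPKM in L7 and 3.20 ± 0.663 FPKM in control libraries (SD, n = 3 each), both with overlapping groups. Il31ra was below the filter.

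Of the 10 kinases, STATs and adaptors beside Stat3, 9 had negative differences, where 70.8% of all tested genes did. The median of the 10 was -0.19 against -0.15 for all genes, and 6 of 10 were negative after median of ratios scaling. With L7 replicate 3 also left out the median of the 10 was -0.03. Jak1, the main kinase of gp130, was at 171, 161 and 125 FPKM in L7 and at 172, 161 and 183 FPKM in control libraries, and the adaptor Grb2 averaged 76.4 FPKM in L7 and 86.8 FPKM in control libraries, both with overlapping groups. Jak2, another kinase of the pathway, was at 18.6, 18.6 and 11.6 FPKM in L7 and at 29.0, 22.4 and 27.6 FPKM in control libraries, without overlap.

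All 10 inhibitors and receptor-shedding proteases had negative differences, where 70.8% of all tested genes did. The median of the 10 was -0.42, against -0.15 for all genes. All 10 were also negative after median of ratios scaling, with a median of -0.25 against -0.0029 for all genes. With L7 replicate 3 also left out the median was -0.05, and 9 of the 10 genes were lowest in that library. Socs1, a relative of Socs3 that mainly restrains interferon signalling, was at 27.7, 50.3 and 34.9 FPKM in L7 and at 86.5, 53.7 and 128 FPKM in control libraries. Its groups did not overlap, and L7 replicate 3 was not its lowest library, unlike for Socs3. Its limma log2 difference was -1.18 ± 0.34 (SE) with an adjusted p of 0.580. Ptpn2, a phosphatase that acts on Janus kinases and STATs, was the other of the 10 genes without overlap (13.7% of all tested genes lay below control in this way). The most abundant members were the phosphatases Ptpn6, with means of 154 FPKM in L7 and 198 FPKM in control libraries, and Ptpn1, with 89.2 FPKM in L7 and 114 FPKM in control libraries.

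Of the 21 genes that textbooks give as STAT3 targets, 17 had negative and 4 positive differences, where 70.8% of all tested genes were negative. The median of the 21 was -0.41, against -0.15 for all genes. Without L7 replicate 3 after median of ratios scaling it was -0.09, against -0.0035 for all genes. Groups did not overlap in 5 genes, each time with L7 below control: Timp1, Hif1a, Myc, Bcl3 and Ccnd1, where 13.7% of all tested genes lay below control in this way. Timp1, an inhibitor of matrix proteases, was at 141, 135 and 54.0 FPKM in L7 and at 192, 171 and 228 FPKM in control libraries, with a limma log2 difference of -0.95 ± 0.36 (SE) and an adjusted p of 0.580. Saa3, an acute phase protein and the most abundant of these targets, was at 780, 258 and 159 FPKM in L7 and at 382, 417 and 699 FPKM in control libraries. Its highest and its lowest library were both L7 libraries. Mcl1, a survival factor, was at 259, 244 and 195 FPKM in L7 and at 255, 236 and 342 FPKM in control libraries, with overlapping groups.

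**Figure D3:**
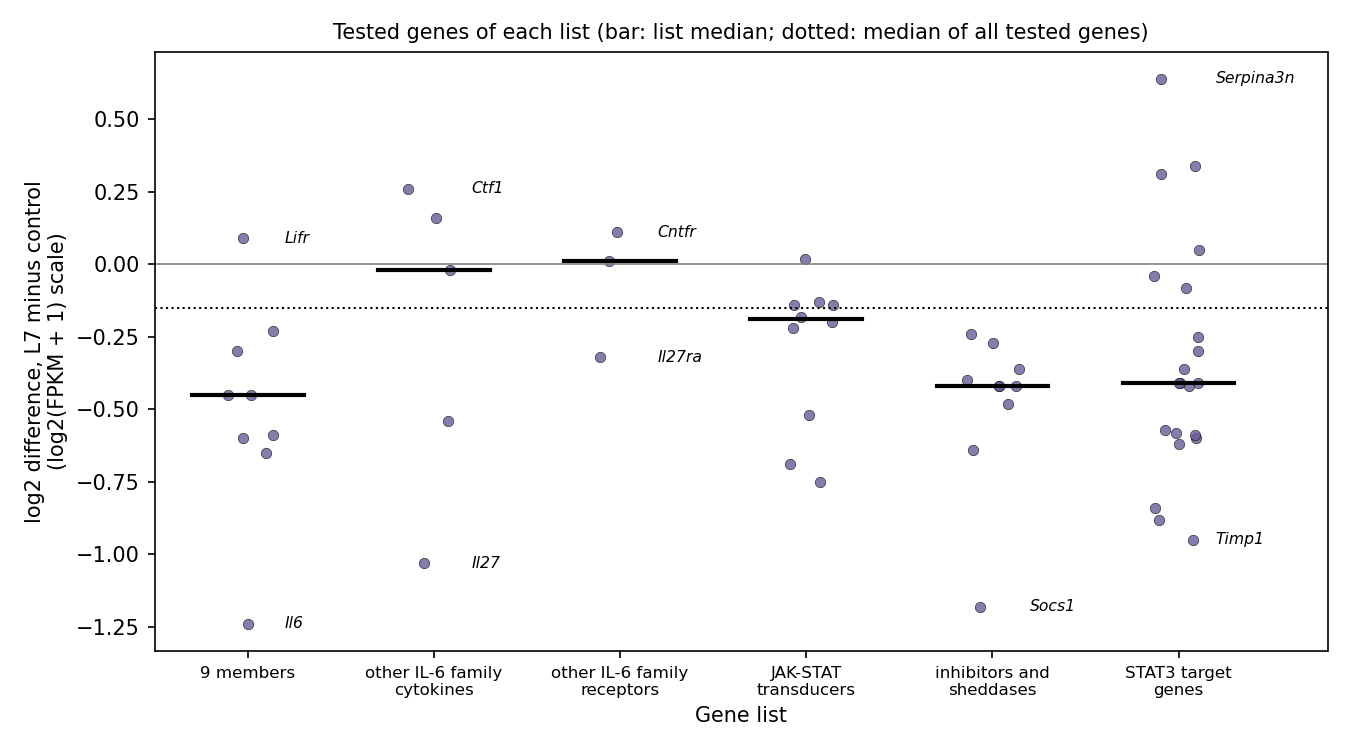
Log2 difference, L7 minus control, on the log2(FPKM + 1) scale for every tested gene of the 6 lists, with a bar at the list median, the dotted line at the median of all tested genes (-0.15), and some of the extreme genes named. The median lay at -0.45 for the 9 family genes, -0.42 for inhibitors and sheddases and -0.41 for STAT3 targets. It lay at -0.19 for JAK-STAT transducers, -0.02 for the other cytokines and 0.01 for the other receptors. Without L7 replicate 3 after median of ratios scaling, the first 3 medians were -0.07, -0.05 and -0.09, in that order.

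Markers of several cell types also set L7 replicate 3 apart, the library that was the lowest for 63.2% of all tested genes. The summed FPKM of 8 macrophage markers was 1737 to 3797 in L7 and 2510 to 3598 in control libraries, with 7 of the 8 lowest in L7 replicate 3 and 4 of the 8 with a lower mean in L7. For 6 neutrophil markers it was 51.0 to 299 in L7 and 164 to 269 in control libraries, with 5 of the 6 lowest in L7 replicate 3. All 6 had a lower mean in L7, while Ly6g, a defining marker, had at most 0.698 FPKM. The sum over neutrophil markers in L7 replicate 3 was 22.5% of the mean of the other L7 libraries, and the sum over macrophage markers was 51.1%. All 5 satellite cell and myoblast markers had a lower mean in L7. They were all lowest in L7 replicate 3. Their summed FPKM in that library was 50.3% of the mean of the other L7 libraries, a sum that rests mainly on Myog and Myod1. Conversely the 8 adult fibre markers were all highest in L7 replicate 3, with sums of 30723 to 90810 in L7 and 20124 to 28303 in control libraries. The part of these cell types in the low Socs3, Osm, Lif, Il6ra and Il6 values of L7 replicate 3 was not tested.

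The remaining lists are given by their sums. The 6 fibro-adipogenic markers summed to 1099 to 1174 FPKM in L7 and 1337 to 1668 FPKM in control libraries, without overlap, a sum that rests mainly on Ly6a. Ly6a, also an interferon-induced gene, was at 706, 657 and 513 FPKM in L7 and at 1041, 783 and 1236 FPKM in control libraries. In L7 replicates 1 and 2 the macrophage sum was 3797 and 3004, against 2510 to 3598 in control libraries. The neutrophil sum in the same 2 libraries was 299 and 154, against 164 to 269 in control libraries. The sums of T and NK lymphocyte, endothelial and pericyte markers overlapped between the groups. Adipocyte, Schwann cell and regenerating fibre sums lay above control in each L7 library, at 2.15 to 5.38, 13.7 to 56.0 and 3738 to 4375 FPKM in L7 against 0.388 to 1.59, 12.4 to 13.5 and 1996 to 3026 FPKM in control libraries, in that order of lists. The Schwann cell sum was highest in L7 replicate 3. No marker was at 0 in every library, and adult and regenerating fibre markers were abundant throughout, as the label of muscle tissue implies. None of these marker sums was tested as a part of the Il6 or Osmr differences.

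**Figure D4:**
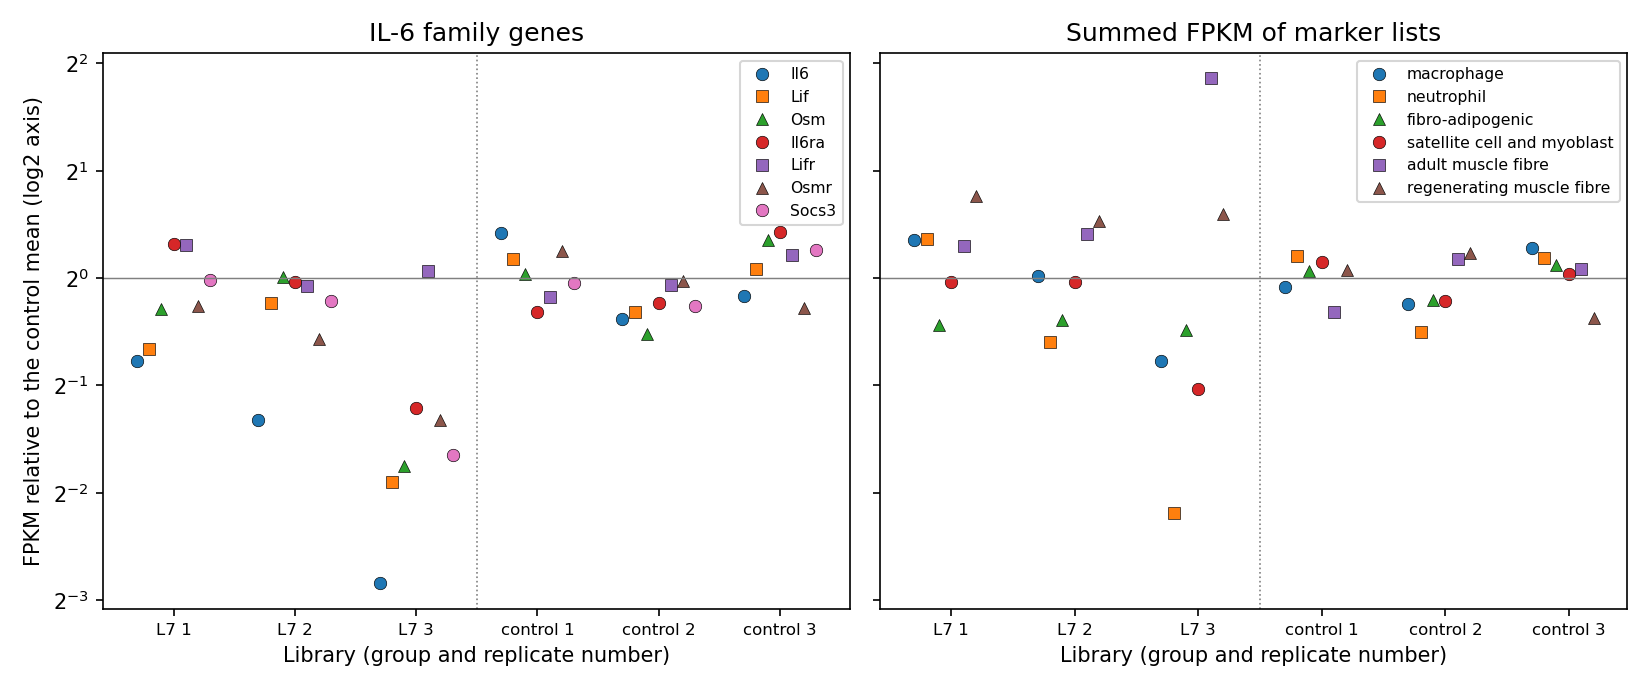
FPKM of 7 IL-6 family genes (left) and summed FPKM of 6 marker lists (right) in each library, relative to the mean of the 3 control libraries, on a log2 axis. L7 replicate 3 was low for Socs3, Osm, Lif, Il6ra and neutrophil markers and high for adult fibre markers, while Il6 was below each control library in all 3 L7 libraries.

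The genes whose pattern over the 6 libraries was most like that of Socs3 were Trpv2, Cib1, Trpm2, Arf3 and Lcp1, with Pearson correlations of 0.998 to 0.999 on the log2(FPKM + 1) scale. All 5 shared the low value in L7 replicate 3, and without that library the correlations were 0.97 to 0.99. Lcp1, an actin-bundling protein of leukocytes, was at 301, 246 and 103 FPKM in L7 and at 278, 242 and 335 FPKM in control libraries. Among the family genes over the 6 libraries, Il6st and Stat3 had the highest correlations with Socs3, 0.973 and 0.970, and Lifr the lowest, 0.121. Over the 5 libraries without L7 replicate 3 the order was different, with Il6st at 0.85, Osm at 0.77, Il6ra at 0.74, Stat3 at 0.64, Lifr at 0.59 and Lif at 0.40. For Il6 the correlation with Socs3 was 0.842 over the 6 libraries and 0.37 over the 5 without L7 replicate 3. For Osmr these values were 0.822 and -0.01. The libraries share depth, scaling and the departure of L7 replicate 3, and with so few of them these correlations are descriptions only.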

How the data were processed

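The authors deposited FPKM values for 6 libraries, made from poly-T selected RNA per the labels' protocols. The submitters' processing notes name, without roles, the build mm10 and DESeq 1.12.0, HISAT2 2.0.4, TopHat2 2.0.12 and Bowtie2 2.2.3. For the read counter, annotation and strand setting, nothing is given in the sources used here. The authors' comparison table gives, per the file headers, the signal of each group (mean reads over size factors) with log2 fold changes and raw and adjusted p-values. Reads per gene were recovered from the steps of both tables, all 152096 values above 0 being whole to within 0.05.

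Symbols came from GENCODE M21 (51633 of 52369 identifiers matched). Groups were compared on log2(FPKM + 1) by limma 3.58.1 under R 4.3.3, two-sided and with a trended prior variance, over the 14788 genes with mean FPKM of at least 1, Benjamini-Hochberg adjusted, threshold 0.05. It was also run on reads simulated around the control profile, without a departing library such as L7 replicate 3. That run cannot show how limma performs on these data. Single genes and ratios had exact permutation tests over 20 splits. Tables and figures used Python 3.11.15, pandas 2.3.3, numpy 2.4.6 and matplotlib 3.10.9. Alternatives were another pseudocount (0.1), filters, scaling, array weights, sex from Y-linked reads, a replicate block, voom on the recovered reads and leaving out each library.

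The 9 genes and all lists were chosen with earlier results of these data known. In each list the 2 most abundant tested genes and the one of largest difference are named. Further genes were named after their values were seen, namely those without overlap between groups, those below the filter, Ly6a, Ly6g and Gm20544. Some genes that this rule would name are not reported here.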

Additional observations from a re-analysis of the deposited data

How the results depend on the processing

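No family gene was called in any of the alternatives run. Over all tested genes limma called 0 genes, 3 with array weights, 1 without L7 replicate 3 after median of ratios scaling, and 0 to 1 when 1 library was left out (1 without L7 replicate 1), none of them a family gene or in the lists. Genes without overlap between groups numbered 2 of 9, and 1 with median of ratios scaling. When 1 library was left out they numbered 2 to 4 (4 without control replicate 2, where Lif and Osm joined). With 1 library fewer, separation without overlap is easier to reach by chance. For leaving out 1 library, the share over all tested genes was taken only without L7 replicate 3 (15% below and 9.9% above control). The 4 of 9 without control replicate 2 thus has no such share beside it, and no conclusion is drawn from it. The median log2 difference of the 9 genes, -0.45, ranged from -0.69 without L7 replicate 2 to -0.10 without L7 replicate 3 when 1 library was left out, and was -0.07 without L7 replicate 3 after median of ratios scaling. Il6 was negative in all 16 alternatives, from -1.59 to -0.82, with adjusted p-values from 0.350 to 0.873. Il6ra ranged from -0.51 to 0.17 when 1 library was left out (-0.51 without L7 replicate 1), and was positive with array weights (0.22), without L7 replicate 3 (0.17) and also after median of ratios scaling without it (0.19), where Il6st was 0.03; the cause was not tested beyond leaving out that library.

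Libraries of the same replicate number did not deviate together, with correlations of 0.32, -0.07 and 0.09 for numbers 1, 2 and 3, so the numbers were not taken to pair the libraries. With the replicate block 0 genes were called, and Il6 was at -1.24 with an adjusted p of 0.504. A sex covariate from Y-linked reads in limma also gave 0 called genes. Il6 was then at -1.01 and Osmr at -0.54, both with an adjusted p of 0.871. Tests that need deposited counts (edgeR and DESeq2) were not run. A filter of 5 FPKM left out Lif and Osm. Read numbers limit Il6, Lif and Osm most.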

Other observations

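Vegfa and Ctf1 were highest in L7 replicate 3, the library with the lowest Socs3 value. Vegfa, a vascular growth factor on the STAT3 target list, was at 89.0, 90.4 and 214 FPKM in L7 and at 89.6, 100 and 99.4 FPKM in control libraries. Ctf1, a cytokine of the family also called cardiotrophin 1, was at 6.37, 7.59 and 11.5 FPKM in L7 and at 6.26, 6.97 and 6.98 FPKM in control libraries. Serpina3n, an acute phase protease inhibitor, was spread widely in both groups, at 54.2, 16.2 and 25.4 FPKM in L7 and 19.4, 4.99 and 52.9 FPKM in control libraries. These genes were named after their values were seen, and none passed limma at an adjusted p under 0.05.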
